A study of Mus musculus with 48 samples.

Results

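The genes described here are Bdnf, which encodes the neurotrophin brain-derived neurotrophic factor, and 7 genes for receptors of neurotrophins and their precursors: Ntrk2, Ntrk3, Ngfr, Sort1, Sorcs1, Sorcs2 and Sorcs3. They are 8 of 22238 protein-coding genes of the annotation. A peak was assigned to a gene when it overlapped the gene body in the mouse genome build mm9, and peaks of different animals that overlapped each other were merged into a region. This gave 110 regions in the 8 genes out of 81807 regions in the genome.

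The peaks came from immunoprecipitation of RNA carrying N6-methyladenosine (m6A) followed by sequencing (MeRIP-seq), in which fragmented RNA bound by an antibody to m6A was sequenced beside the unselected input RNA of the same animal. Hippocampi of 24 male mice were used, 3 in each of 8 conditions. WT mice were HdhQ7/7 (wild-type) and KI mice were HdhQ7/Q111, heterozygous for an expanded CAG repeat knocked into the mouse huntingtin gene and kept on a C57BL/6 background. Both genotypes were examined at 5 months and at 8 months of age, either naive (not trained) or trained on an object-place exploration task and killed shortly afterwards. No transgene, Cre driver or viral agent was part of these conditions, and each library came from the RNA of 1 animal. Since whole hippocampus was used, fewer cells of a type and less RNA per cell cannot be told apart.

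BDNF is made as a precursor, proBDNF, which is cleaved to the mature factor. Mature BDNF binds the receptor tyrosine kinase TrkB, the product of Ntrk2, and supports synaptic plasticity and long-term potentiation in the hippocampus. TrkC, the product of Ntrk3, is the receptor of neurotrophin-3. The p75 neurotrophin receptor, the product of Ngfr, binds all mature neurotrophins weakly and their precursors together with sortilin (Sort1) or SorCS2, members of the VPS10 domain family of sorting receptors to which SorCS1 and SorCS3 also belong. Alternative ends of Ntrk2 and Ntrk3 transcripts give truncated receptors that lack the kinase domain, and Bdnf has several alternative 5' exons that are each spliced to a shared last exon holding the coding sequence. The m6A mark is placed by the METTL3-METTL14 complex within short sequence contexts such as GGAC, in which the A is methylated, and in mRNAs it is most frequent in long exons, around the stop codon and in the 3'UTR.

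The depth of each library is known here only as its number of peaks, beside an approximate read coverage that the study's methods give for the libraries together. The lists held 22601 to 57293 peaks per animal (median 33826) with a median length of 172 to 485 bp in the individual animals and a median fold enrichment of 4.39 to 5.21. KI naive 8-month animals had 37948 to 57293 peaks, against 22601 to 27906 in WT trained 5-month animals. The mean was 32580 ± 5129 peaks at 5 months and 38869 ± 8513 at 8 months (SD, n = 12 each). Of 6 excitatory neuron markers, all 6 carried a peak in at least 1 animal and 5 carried one in all 24, and of 4 choroid plexus genes, 3 carried a peak in at least 1 animal and 1 in all 24, while Ttr, a defining gene of that tissue, had none.

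The regions that the results turn on are shown here by 30-base windows of mm9, written 5' to 3' on the strand of the gene. The windows of the following group hold the GGAC nearest to the strongest summit of an exonic region, with GGAC in capitals.
Bdnf, coding part of the shared last exon, chr2:109563628-109563657, plus strand: agtaaacgtccacGGACaaggcaacttggc
Bdnf, 5'UTR of Bdnf-001, chr2:109515145-109515174, plus strand: tagcagggcaattGGACagtcattggtaac
Bdnf, 5'UTR of Bdnf-006, chr2:109532606-109532635, plus strand: ttcaccgaggagaGGACtgctctcgctgcc
Ntrk2, 5'UTR, chr13:58910019-58910048, plus strand: cccctccggcgggGGACgcctggctcagcg
Ntrk2, coding exon, chr13:59155649-59155678, plus strand: gacagacgctgaaGGACgccagcgacaatg
Ntrk3, 3' end of Ntrk3-001, chr7:85337444-85337473, minus strand: ccccgatctacctGGACattcttggctagt
Ntrk3, 3' end of Ntrk3-002, chr7:85447516-85447545, minus strand: ttatttcagcaaaGGACgtcatggctttta
Ngfr, coding exon, chr11:95439443-95439472, minus strand: cggggtgggctcaGGACtcgtgttctcctg
Sort1, 3'UTR, chr3:108160650-108160679, plus strand: gactggcacacctGGACagcttttctccat
Sorcs1, the first exon, chr19:50752694-50752723, minus strand: cagtggcccccggGGACcgtgcgctgtttc
Sorcs1, 3'UTR, chr19:50222639-50222668, minus strand: tgagaagtttggtGGACttaaggccaaagg

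The next group shows the bases at the strongest summit of some of the intronic regions that were called in most animals, picked for their composition. The regions shown hold no GGAC within 100 bases of the summit on the gene strand, and are written with no capitals. Other frequent intronic regions are left out, among them chr13:59098097-59098723 and chr13:58938944-58939376 of Ntrk2, in 23 and 19 animals, which do hold GGAC.
Sorcs2, intron, chr5:36385357-36385386, minus strand: agaaagaaagaaagaaagaaagaaagaaag
Sorcs2, intron, chr5:36558765-36558794, minus strand: gagagagggagagtggagagagagaggaga
Sorcs3, intron, chr19:48832928-48832957, plus strand: gaagagagaaaggaaggaaggatggaagga
Ntrk3, intron, chr7:85536369-85536398, minus strand: gagaggagagagagagagagagaggaggga
Ntrk3, intron, chr7:85351116-85351145, minus strand: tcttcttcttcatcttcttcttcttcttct

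Most regions of the 8 genes were intronic. By the strongest summit, 70 of the 110 regions were in an intron, 18 in coding sequence, 15 in a 3'UTR and 6 in a 5'UTR, and 1 lay just before the annotated start of Sorcs3. In all 24 animals, 9 regions (8.18%) were called, against 14.9% of all regions and 16.9% of regions in protein-coding genes. At the other extreme, 50 regions (45.5%) were called in fewer than 3 animals, against 36.4% of all regions. Of the 58 calls in these rare regions, KI naive 8-month animals gave 19 (32.8%), against 38.4% of the calls in all regions so rarely called. KI naive 5-month animals gave 14 (24.1%, against 13.4%), WT trained 8-month animals 11 (19%, against 10%) and KI trained 5-month animals 8 (13.8%, against 10.5%). Both WT naive conditions gave 2 (3.45%, against 10.7% at 5 months and 8.44% at 8 months), and WT trained 5-month and KI trained 8-month animals gave 1 each (1.72%, against 2.2% and 6.32%). The KI naive 8-month lists were also the longest, and the part of list length in this spread was not tested.

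**Figure D1:**
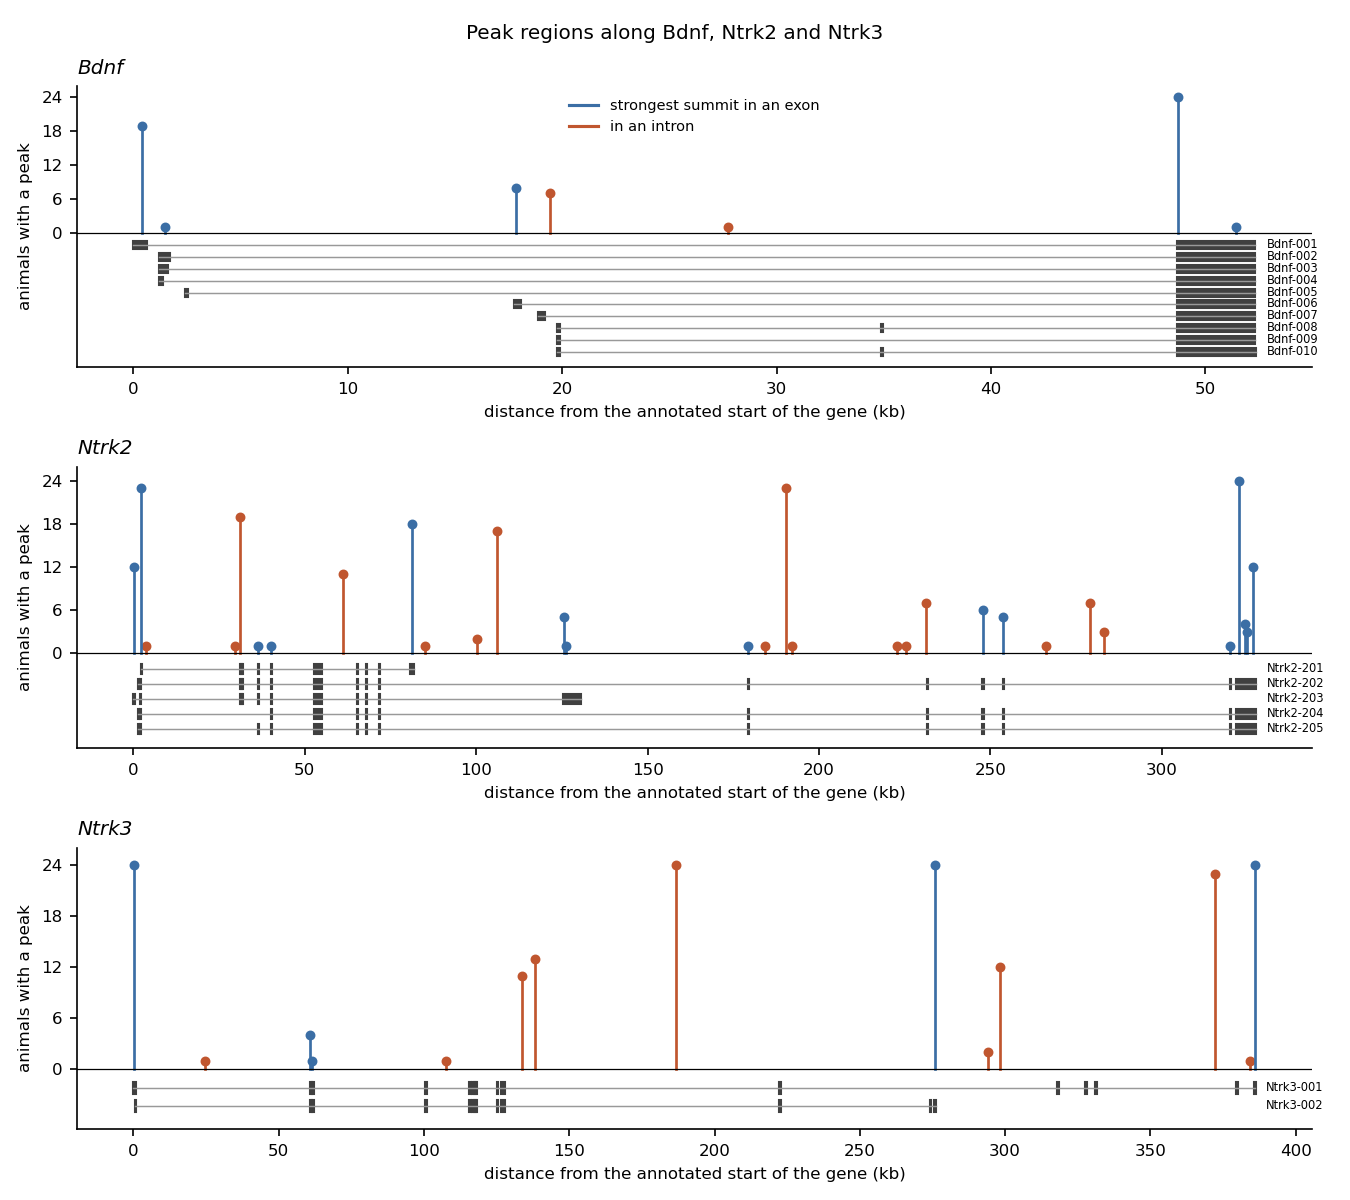
Number of the 24 animals with a peak (vertical axis) in each region of Bdnf, Ntrk2 and Ntrk3 by its distance from the annotated start of the gene (horizontal axis, kb), coloured by whether the strongest summit lies in an exon or an intron, above the annotated transcripts with their exons as boxes. Regions called in all 24 animals lie in the shared last exon of Bdnf, in the 3'UTR of the long Ntrk2 transcripts and at both ends of Ntrk3, where an intron and the end of the short transcript also reach 24.

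Bdnf (chr2:109514857-109567204, plus strand) held 7 regions. The region in its shared last exon, chr2:109563360-109564552, was called in all 24 animals with a median fold enrichment of 4.59, that is, the MACS2 pileup of the immunoprecipitate at the summit over the local background. Its fold enrichment was 6.08, 3.41 and 4.85 in the WT naive, 6.08, 4.86 and 4.07 in the WT trained, 3.0, 4.87 and 3.61 in the KI naive and 3.88, 3.66 and 3.97 in the KI trained 5-month animals. Values at 8 months were 4.97, 3.59 and 6.04 for WT naive, 4.10, 5.14 and 4.57 for WT trained, 5.30, 5.96 and 4.61 for KI naive and 3.80, 2.96 and 5.53 for KI trained. At 5 months the KI trained animals all lay below the WT trained animals, and in the other 3 KI and WT pairs the animals overlapped. The log2 difference in the trained 5-month pair was -0.52 (SE 0.28, limma adjusted p = 0.999, fit described below). How many of all regions separate in this way was not counted. All 10 annotated Bdnf transcripts share this exon.

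The alternative 5' exons of Bdnf differed in how often they were called. The exon of Bdnf-001, chr2:109514874-109515554, was called in 19 animals with a median fold enrichment of 8.04 and a range of 5.05 to 11.4 at 5 months and 4.87 to 9.82 at 8 months. The exon of Bdnf-006, chr2:109532522-109532798, was called in 8 animals (median fold enrichment 6.02), 7 of them 8 months old. A region over the exon of Bdnf-007 and the sequence after it, chr2:109533731-109534364, was called in 7 animals (median fold enrichment 3.65), 6 of them 8 months old. The remaining 3 Bdnf regions were each called in 1 animal.

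Ntrk2 (chr13:58907957-59235331, plus strand) held 31 regions. The 3'UTR shared by the long transcripts Ntrk2-202, Ntrk2-204 and Ntrk2-205 carried chr13:59229370-59231158, the only Ntrk2 region called in all 24 animals, with a median fold enrichment of 3.27. Its fold enrichment was 2.99, 2.50 and 3.07 in the WT naive and 4.76, 3.19 and 4.64 in the KI naive 5-month animals, and 3.20, 2.77 and 2.86 in the WT naive and 2.85, 4.86 and 2.94 in the KI naive 8-month animals. KI naive animals were all above WT naive animals at 5 months and overlapped with them at 8 months. The log2 difference at 5 months was 0.56 (SE 0.29, limma adjusted p = 0.9995, fit described below). The number of all regions with such a separation was not counted. Within 100 bases of its strongest summit this region held no GGAC.

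The short Ntrk2 transcripts end within the gene. The 3'UTR of Ntrk2-201 carried chr13:58988887-58989259, called in 18 animals with a median fold enrichment of 3.35, and that of Ntrk2-203 carried chr13:59033304-59033598, called in 5 animals with a median of 2.13. At the start of the gene, the 5'UTR region chr13:58909575-58910267 was called in 23 animals (median 3.23). Intronic Ntrk2 regions included chr13:59098097-59098723 in 23 animals (median 3.72). The end of Ntrk2-201 was called in 11 of 12 5-month animals and in 7 of 12 8-month animals (Fisher's exact test p = 0.155, adjusted p = 0.620).

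Ntrk3 (chr7:85337248-85723294, minus strand) had 4 regions called in all 24 animals, more than any of the other 7 genes. Both annotated ends of its coding transcripts were among them. The region at the end of the long transcript Ntrk3-001, chr7:85335188-85337754, had a median fold enrichment of 6.06 and extended past the annotated gene end, where 24 of its summits lay against 7 in the 3'UTR. The region at the end of the short transcript Ntrk3-002, chr7:85446237-85447717, had a median of 4.81, with 11 summits in the 3'UTR, 2 in coding sequence and 23 in the intron past the annotated end. The 5'UTR region chr7:85722464-85723255 (median 3.59) and the intronic region chr7:85536018-85536582 (median 3.68) completed the 4. The highest median fold enrichment of any region of the 8 genes called in 18 or more animals was in another Ntrk3 intron, chr7:85350905-85351340, at 10.6 in 23 animals, with 3.59 to 16.5 at 5 months and 4.86 to 19.6 at 8 months.

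Ngfr (chr11:95430132-95449049, minus strand), the shortest of the 8 genes, held 5 regions, all of them exonic. Its 3'UTR region chr11:95430470-95432484 was called in 23 animals with a median fold enrichment of 7.68. The animal without it was a WT naive 5-month animal with no Ngfr peak at all. The strongest summit of this region stood in a CA repeat. The other 4 regions were in coding sequence and were called in 1 to 7 animals, most often chr11:95439293-95439711, which had a median fold enrichment of 4.20.

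Of the VPS10 domain receptors, Sort1 (chr3:108087009-108164429, plus strand) had the fewest regions, 4. Its 3'UTR region chr3:108160120-108160873 was called in all 24 animals although its median fold enrichment was only 2.21, with 1.57 to 2.71 at 5 months and 1.63 to 2.59 at 8 months. Sorcs1 (chr19:50218430-50753102, minus strand) had no region in all 24. Its first exon, chr19:50752367-50753081, was called in 22 animals (median 3.39) and overlaps the start of Gm16745, a lincRNA on the opposite strand, so that reads of either transcript could contribute. Its 3'UTR regions chr19:50222596-50222898 and chr19:50225327-50225631 were called in 12 and 11 animals with medians of 6.34 and 5.8.

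Sorcs2 (chr5:36359829-36740788, minus strand) and Sorcs3 (chr19:48280515-48879995, plus strand) carried most of their frequent calls in introns. The Sorcs2 intron region chr5:36385218-36385967 was called in all 24 animals with a median fold enrichment of 6.66 and ranged from 2.95 to 17.1 at 5 months. Further Sorcs2 introns were called at chr5:36558626-36559342 in 23 animals (median 8.04) and at chr5:36526210-36526760 in 20 (median 6.21), whereas the 3'UTR region chr5:36361380-36362023, in 19 animals, had a median of 2.78. In Sorcs3 the region over the start of the gene, chr19:48279860-48281277, was called in all 24 animals (median 4.31), with 20 summits in coding sequence and 7 before the annotated start. No Sorcs3 region lay in the 3'UTR.

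The frequent intronic regions stood apart from the exonic ones in sequence. GGAC was searched on the gene strand, and separately on the opposite strand, within 100 bases on either side of the strongest summit, a window of 201 bases. It was present in 57.6% of all regions that lie in 1 gene (42.8% on the opposite strand) and in 44 of the 110 regions of the 8 genes (35 on the opposite strand). Among regions called in 18 to 24 animals, 10 of the 12 exonic regions of the 8 genes held it (all genes 72.2%), and 2 of the 11 outside exons did (all genes 48.8%). A window without these letters says nothing about methylation in another context.

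Of those 11 regions whose strongest summit lay outside exons, 7 consisted of at least 80% A and G or at least 80% C and T over the 201 bases, against 20.6% of such regions over all genes. The 7 were in Ntrk3, Sorcs2 and Sorcs3, and 5 of them are printed above. In all, 19 of the 71 regions outside exons were such tracts (11.7% over all genes) and none of the 39 exonic regions was. The tract regions were in Ntrk3 (5), Sorcs1 (6), Sorcs2 (3), Sorcs3 (4) and Ntrk2 (1). Among regions outside exons in 18 to 24 animals, the median fold enrichment was 6.48 for the 7 tracts and 4.01 for the other 4. The limit of 80% was chosen after the sequences had been seen, and the part of base composition in these peaks was not tested. Per the study's methods, reads in repetitive regions had been removed before the peaks were called.

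**Figure D2:**
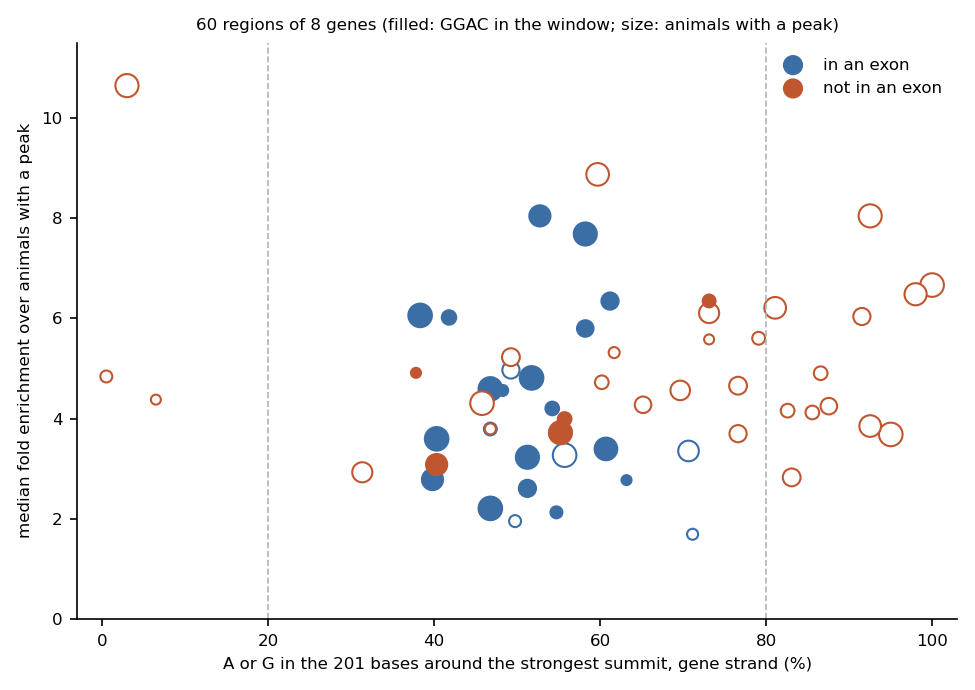
Percentage of A and G over the 201 bases around the strongest summit (horizontal axis) against the median fold enrichment over animals with a peak (vertical axis) for the regions of the 8 genes called in 3 or more animals, coloured by exon or not, filled where the window holds GGAC and sized by the number of animals. Every exonic region lies between the dashed lines at 20% and 80%, and the regions beyond them are open circles outside exons, from 0.498% A and G in a Sorcs1 intron to 100% in a Sorcs2 intron, with the Ntrk3 intron of the highest enrichment at 2.99%.

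To ask whether calls differed by genotype, training or age, the animals with and without a peak were compared in each region called in 3 to 21 animals by a 2-sided Fisher's exact test over 24 animals, with Benjamini-Hochberg adjustment over all 35110 regions tested in the genome. Of these, 44 were regions of the 8 genes. None of the 44 differed by genotype after adjustment (0.00285% of all regions tested) or at an unadjusted p under 0.05 (1.79% of all regions). None differed by training, adjusted (0% of all regions) or unadjusted (1.44%). By age, 0 of 44 passed after adjustment (0% of all regions) and 4 of 44 had an unadjusted p under 0.05, a share close to the 9.8% of all regions that did. An adjusted p that misses the threshold does not show that calls were alike.

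All 4 regions with an unadjusted p under 0.05 for age were called more often at 8 months, and 3 of them were in Ntrk2. The coding exon at chr13:59155441-59155771 was called in 6 of 12 8-month animals and 0 of 12 5-month animals (Fisher's exact test p = 0.0137, adjusted p = 0.312). Its fold enrichment in those 6 was 3.0 and 4.63 in WT naive, 3.62 in WT trained, 3.96 and 4.95 in KI naive and 3.42 in KI trained animals. The coding exon at chr13:59161438-59161785 was called in 5 8-month animals and 0 5-month animals (Fisher's exact test p = 0.0373, adjusted p = 0.399), with 1.71 to 3.75 fold enrichment. Both exons belong to the part of the gene that only the long transcripts reach. Calls of either exon were found in both genotypes.

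At the Ntrk2 start, chr13:58907887-58908327, a 5'UTR region of Ntrk2-203, was called in 9 8-month and 3 5-month animals (Fisher's exact test p = 0.0391, adjusted p = 0.399). The Bdnf-006 exon was called in 7 8-month animals, namely 2 each of WT naive, WT trained and KI naive and 1 KI trained, and in 1 5-month animal, which was WT trained (Fisher's exact test p = 0.0272, adjusted p = 0.399). No condition at 8 months was without a call at either region. The 8-month lists were longer, as given above. All lists were also shortened to an equal number of peaks, keeping those with the lowest q-values. The Ntrk2 exon at chr13:59155441-59155771 then had 6 and 0 calls (Fisher's exact test p = 0.0137) and the Ntrk2 start 8 and 2 (Fisher's exact test p = 0.0361). The Bdnf-006 exon had 2 and 1 (Fisher's exact test p = 1.0), and the exon at chr13:59161438-59161785 had too few calls to be tested. These p-values are unadjusted, and 6.1% of all regions tested had one under 0.05 in the shortened lists. The regions were picked by their p-value in the full lists, and the part of list length was not tested.

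**Figure D3:**
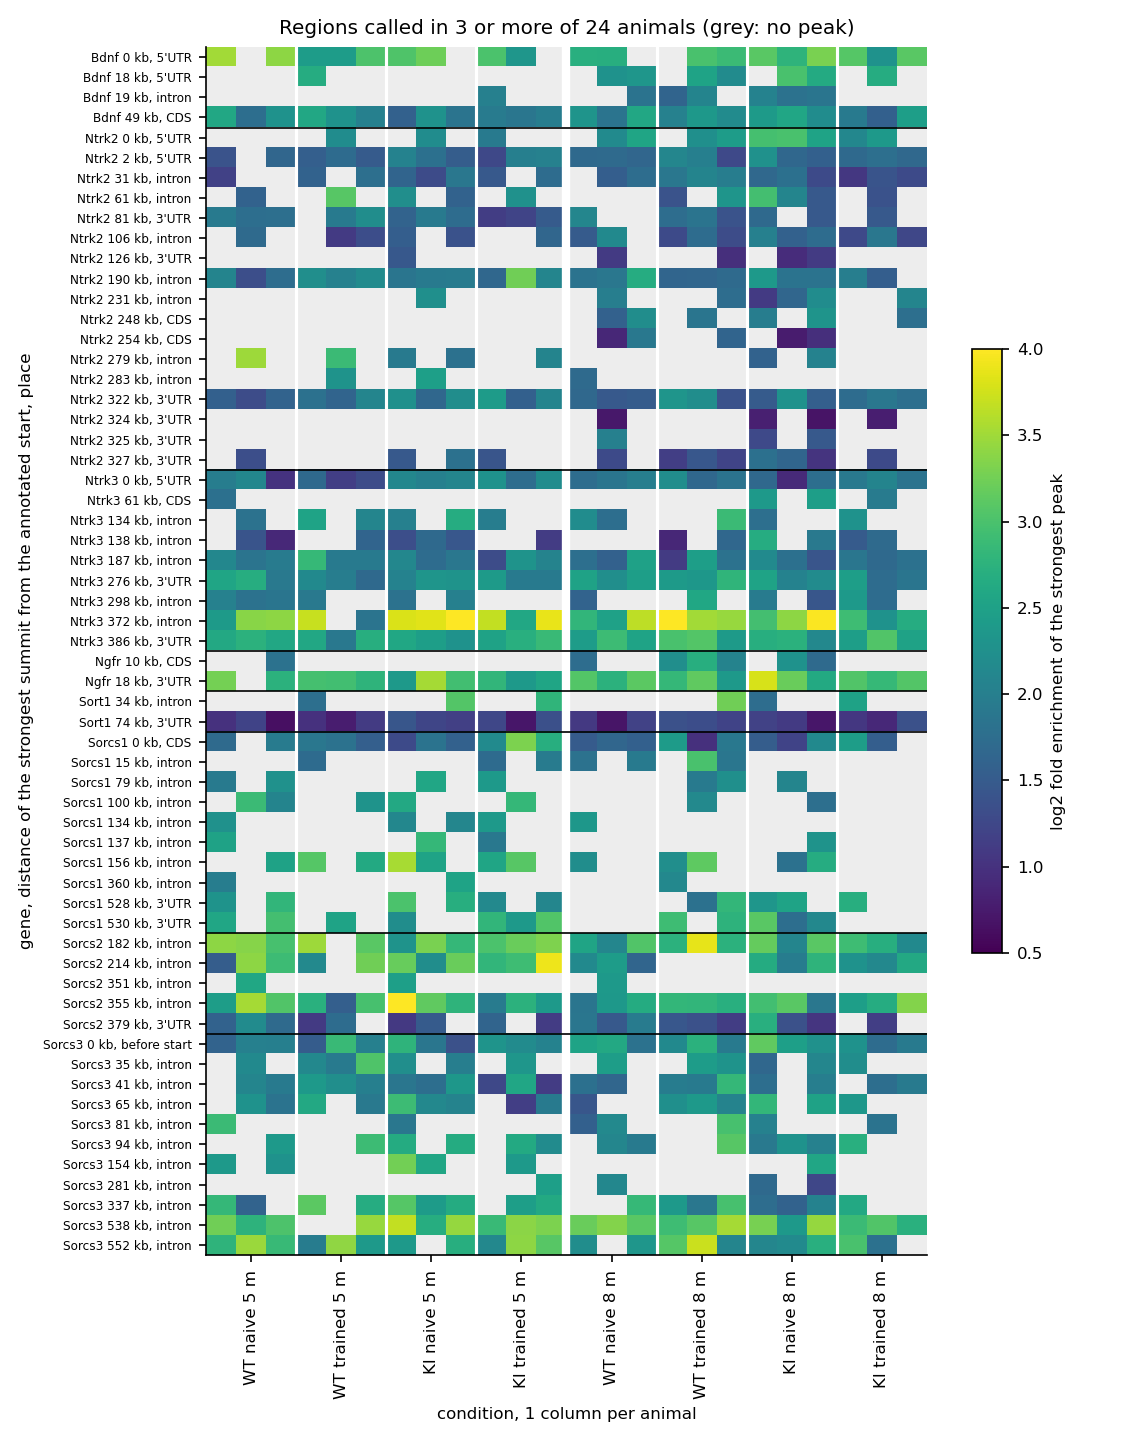
Log2 fold enrichment of the strongest peak (colour) in each region of the 8 genes called in 3 or more animals (rows, with the distance from the annotated start in kb and the place) and in each animal (columns, 3 per condition), with grey where no peak was called. The Ntrk2 coding exons described above are grey in all 12 5-month animals, and rows for the ends of Ntrk3 are filled throughout.

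The study's own pairs, KI against WT and trained against naive within an age, hold 3 animals on each side, and an exact permutation test of 3 against 3 cannot go below 0.1, so calls in all 3 animals of one condition and none of the other are described without a test. Among KI and WT naive 5-month animals no region of the 8 genes showed this pattern (0.848% of all regions with a call), and none did in KI and WT trained 5-month animals (1.86%), with training in WT 5-month animals (1.11%) or with training in KI 5-month animals (0.689%). All 7 cases, in 5 regions, were at 8 months, when the lists were longer. With lists of equal length, or with a peak required to cover 50% of the region, none of the 7 was found, and with peaks of −log10 q of 3 or more 5 remained, without the Ngfr exon and the Sorcs2 intron in KI and WT trained animals. They comprised 2 of 80 regions in KI and WT naive animals (1.19% of all regions), 2 of 63 in KI and WT trained animals (0.708%), 1 of 69 with training in WT animals (0.736%) and 2 of 75 with training in KI animals (1.55%). Pairs that use the same animals are not independent of each other.

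Between KI and WT naive 8-month animals, a Ntrk2 intron at chr13:58968901-58969246 was called in all 3 KI animals (fold enrichment 7.76, 4.27 and 2.79) and in no WT animal. In the remaining conditions it was called in 1 or 2 of 3 animals, with no preference for a genotype. The Sorcs1 3'UTR region chr19:50222596-50222898 was likewise called in all 3 KI naive 8-month animals (8.64, 3.41 and 4.39) and no WT naive one. It was called in none of the KI trained 8-month animals, so it makes up 2 of the 7 cases, and in WT trained 8-month animals it was called in 2. At 5 months its calls ran otherwise, in 2 WT naive, 1 WT trained, 1 KI naive and 3 KI trained animals.

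After training at 8 months, the coding exon of Ngfr at chr11:95439293-95439711 was called in all 3 WT animals (4.71, 6.47 and 4.20) and no KI animal. The Sorcs2 intron chr5:36526210-36526760 was called in all 3 KI trained animals (4.88, 4.38 and 6.10) and no WT trained one, although all 3 WT naive animals of that age had it (4.46, 5.39 and 3.13). That region is one of the A and G tracts, and it was called in 20 animals in all. The Bdnf region chr2:109533731-109534364 was called in all 3 KI naive (4.16, 3.52 and 3.65) and no KI trained 8-month animal.

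Levels could be compared over all animals in the 9 regions called in each of them, where no value was missing. The log2 fold enrichment of the strongest peak, centred on the median of each animal, was fitted with limma over the 8 conditions for all 12187 such regions in the genome. None of the 9 regions passed an adjusted p of 0.05 for KI against WT (0% of all regions), for training (0.00821%) or for age (0%), each averaged over the other conditions. Without adjustment the count was also 0 of 9 for genotype (4.01% of all regions), training (3.77%) and age (7.7%). The averaged differences of KI from WT ran from -0.23 (SE 0.14, Bdnf last exon) to 0.15 (SE 0.14, Ntrk2 3'UTR) on the log2 scale. The standard errors of the 9 averaged differences were 0.12 to 0.20.

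Within the pairs, 1 of the 9 regions had an unadjusted p under 0.05 for KI against WT in trained 8-month animals (4.6% of all regions) and 1 for training in KI 5-month animals (3.32%). The Ntrk3-002 end was 5.31, 5.10 and 6.92 in WT trained and 5.49, 3.32 and 3.65 in KI trained 8-month animals, a difference of -0.51 on the log2 scale (SE 0.24, limma adjusted p = 0.998), and the animals overlapped. The Sorcs2 intron at chr5:36385218-36385967 was 17.1, 8.87 and 6.84 in KI naive and 3.89, 6.71 and 5.20 in KI trained 5-month animals, with no overlap and a difference of -1.06 (SE 0.40, limma adjusted p = 1.0). Without the animal at 17.1 the difference was -0.66. How many of all regions show no overlap in this pair was not counted. In WT animals of that age the same intron was 5.45, 11.6 and 8.31 naive and 6.61, 2.95 and 7.88 trained.

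**Figure D4:**
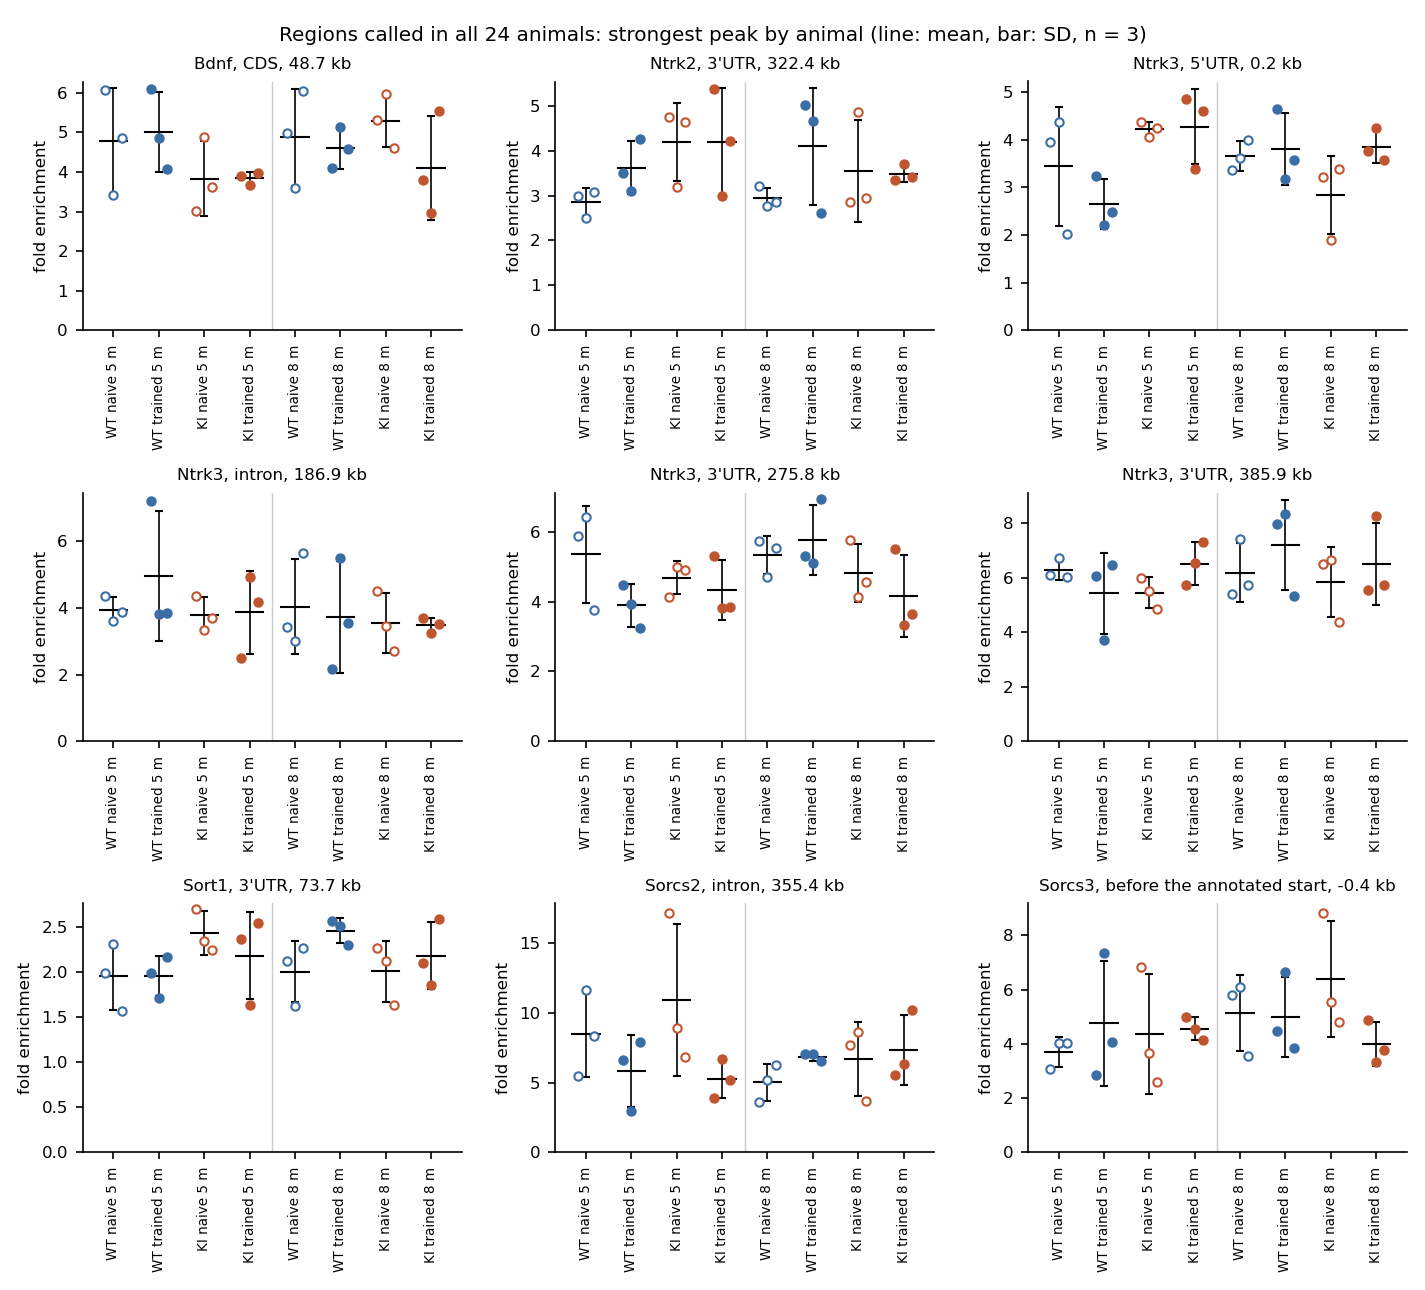
Fold enrichment (vertical axis, from 0) of the strongest peak in each of the 9 regions called in all 24 animals, with 1 point per animal for the 8 conditions, a line at the mean and a bar for the SD (n = 3). The Sort1 3'UTR has the lowest mean of the 9 in every condition, with animals between 1.57 and 2.71, and the Sorcs2 intron has the widest spread, up to 17.1.

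The number of peak summits in each gene was compared as log2 of summits (plus 0.5) per 10000 summits of the animal, again with limma and over 9395 genes. None of the 8 genes passed an adjusted p of 0.05 for KI against WT (0% of all genes), training (0%) or age (2.18%). At an unadjusted p under 0.05 the counts were 0 of 8 for genotype (12.6% of all genes), 0 of 8 for training (7.49%) and 4 of 8 for age (25.2%). The median age difference over all genes was -0.05. The 4 genes were Ngfr and Bdnf, with more summits at 8 months, and Sorcs1 and Sort1, with fewer. The median peak length of an animal was 262 to 477 bp at 5 months (median 394). At 8 months it was 172 to 485 bp (median 332). The part of peak length in the summit numbers was not tested.

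Ngfr had 2, 0 and 3 summits in WT naive, 1, 1 and 2 in WT trained, 1, 1 and 1 in KI naive and 2, 1 and 2 in KI trained 5-month animals. At 8 months the values were 3, 4 and 2 in WT naive, 3, 3 and 6 in WT trained, 3, 4 and 5 in KI naive and 2, 3 and 2 in KI trained animals. No 8-month animal had fewer than 2 summits, and the means were 1.42 ± 0.793 at 5 months and 3.33 ± 1.23 at 8 months (SD, n = 12 each). The scaled difference was 0.83 on the log2 scale (SE 0.23, limma adjusted p = 0.0596). It passed the adjusted threshold when any 1 of the 3 WT naive 5-month animals or the KI naive 8-month animal with 4 summits was left out (limma adjusted p 0.0380 to 0.0459). Of all genes, 0.743% to 3.15% passed without 1 of these WT naive animals and 11.2% without the KI naive animal. The Ngfr difference also passed with a pseudocount of 1 (limma adjusted p = 0.0470, with 2.66% of all genes past the threshold). Without scaling to the total it was 1.07 (limma adjusted p = 0.0190, with 11.6% of all genes past the threshold). With lists of equal length it was 0.58 (limma adjusted p = 0.427).

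Bdnf had 1 to 3 summits at 5 months (median 2) and 2 to 6 at 8 months (median 3), and the KI naive 8-month animals had 4, 4 and 6. Its mean was 1.92 ± 0.669 at 5 months and 3.33 ± 1.23 at 8 months (SD, n = 12 each), and the scaled difference was 0.41 (SE 0.15, limma adjusted p = 0.115). Without scaling, when 11.6% of all genes passed, the difference was 0.66 (limma adjusted p = 0.0190). Measured as bases under peaks in place of summits, the Bdnf difference was 0.09 (limma adjusted p = 0.658), and that of Ngfr 0.91 (limma adjusted p = 0.236). With lists of equal length the difference was 0.22 for Bdnf (limma adjusted p = 0.506) and -1.02 for Sorcs1 (limma adjusted p = 0.102). For the receptors with fewer scaled summits at 8 months, the difference was -0.75 for Sorcs1 (SE 0.28, limma adjusted p = 0.115) and -0.37 for Sort1 (SE 0.15, limma adjusted p = 0.140).

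Sorcs1 held the largest of the pairwise differences in summits with an unadjusted p under 0.05. KI trained 8-month animals had 2, 1 and 0 summits, against 4, 6 and 7 in KI naive, 4, 6 and 5 in WT trained and 4, 2 and 2 in WT naive animals of that age. KI trained animals lay below the KI naive and WT trained animals without overlap. How many of all genes separate in this way was not counted. The scaled difference from WT trained animals was -1.98 (SE 0.55, limma adjusted p = 0.948), where 3.47% of all genes had an unadjusted p under 0.05. From KI naive animals it was -1.77 (SE 0.55, limma adjusted p = 0.176, with 14.6% of all genes under 0.05 unadjusted). The interaction of genotype and training was -2.48 (SE 0.78, limma adjusted p = 0.294, with 12.9% of all genes). With lists of equal length these differences were -1.55, -1.06 and -2.85. At 5 months KI trained animals had 10, 5 and 4 summits and KI naive animals 7, 4 and 4. Of the 18 Sorcs1 regions, the first exon was the one called in 2 KI trained 8-month animals, and the 3'UTR region chr19:50225327-50225631 was called in 1.

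Ntrk2 and Bdnf had unadjusted pairwise differences at 5 months. Ntrk2 had 5, 7 and 4 summits in WT naive and 15, 8 and 9 in KI naive animals, a scaled difference of 0.75 (SE 0.28, limma adjusted p = 0.964), where 3.78% of all genes had an unadjusted p under 0.05. After training it had 4, 9 and 7 in WT and 7, 5 and 8 in KI animals, and the interaction was -1.17 (SE 0.40, limma adjusted p = 0.822, with 5.24% of all genes under 0.05 unadjusted). Bdnf had 3, 2 and 2 summits in WT trained and 3, 2 and 1 in KI trained animals (scaled difference -0.71, SE 0.30, limma adjusted p = 0.236, with 18% of all genes). Without the KI trained animal with 1 summit it was -0.34. With training in WT animals, where 9.52% of all genes had an unadjusted p under 0.05, the scaled difference was 0.74 for Bdnf (limma adjusted p = 0.429) and 0.60 for Ntrk2 (limma adjusted p = 0.439). Left without 1 animal, the Ntrk2 difference was 0.27 (without the WT trained animal with 9 summits) to 0.93 (without the one with 4), and that of Bdnf was 0.49 without the WT naive animal with 1 summit. The WT trained 5-month lists were the shortest of all conditions, and with lists of equal length these training differences were 0.41 for Bdnf and 0.28 for Ntrk2, while that of KI from WT naive animals was 0.67 for Ntrk2 and the interaction -0.93.

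**Figure D5:**
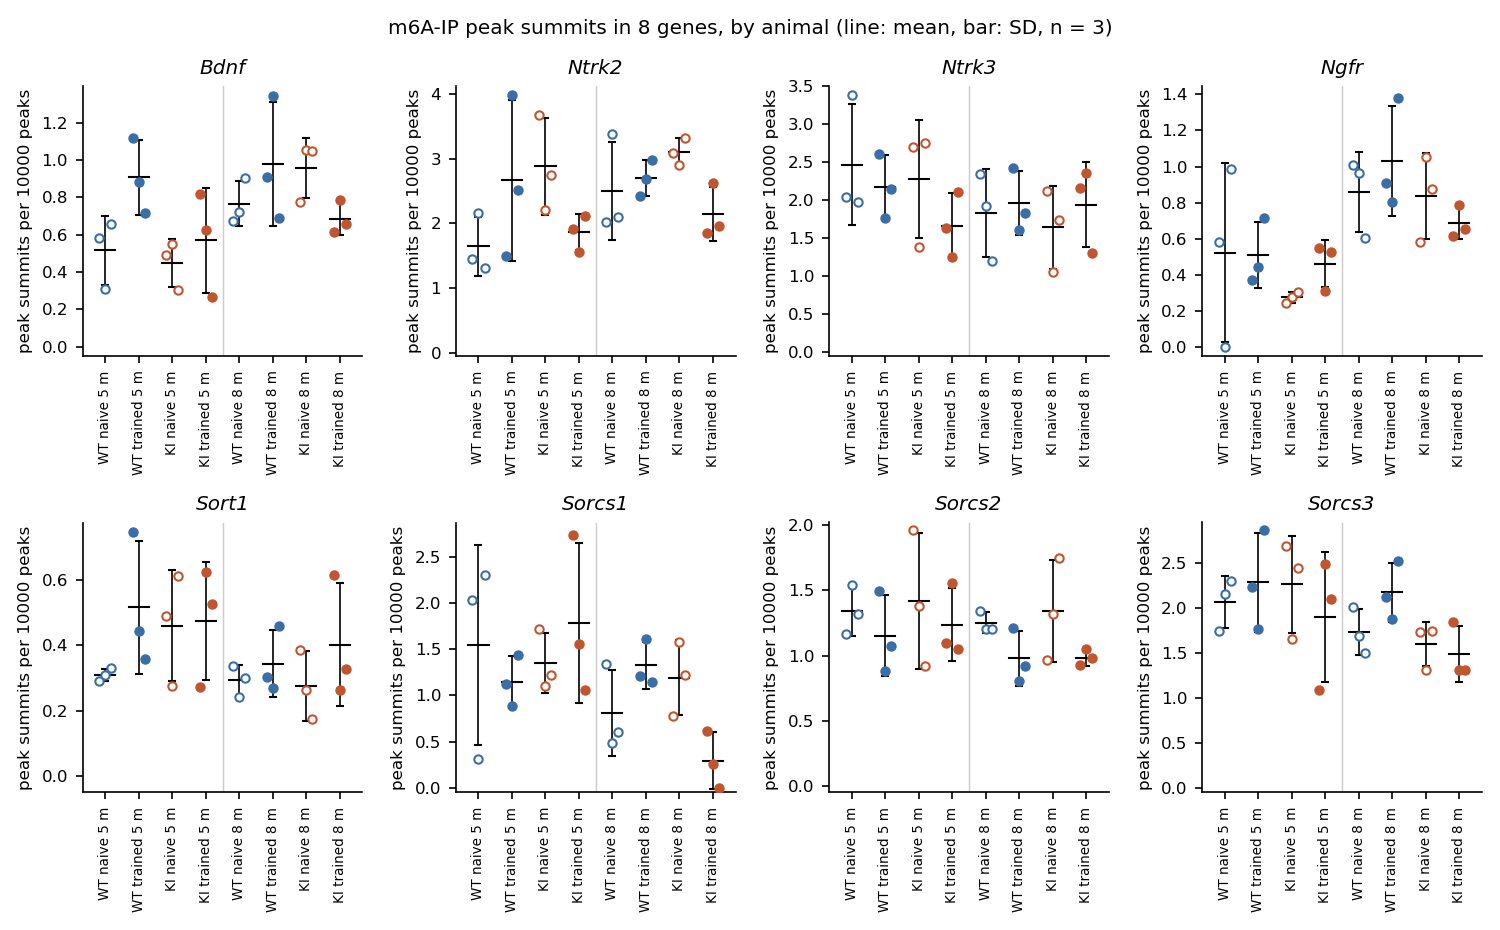
Number of peak summits per 10000 peaks of the animal (vertical axis) in each of the 8 genes, with 1 point per animal for the 8 conditions, a line at the mean and a bar for the SD (n = 3). Scaled in this way, Ngfr has 0 to 0.987 at 5 months and 0.580 to 1.38 at 8 months, and Sorcs1 has 0 to 0.616 in the KI trained 8-month animals.

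The deposited comparison tables give, for each of the 8 pairs of conditions, the authors' mean log2 level of reads in a peak for both conditions. The tables list only peaks chosen by the authors on a p-value, so a difference in them is not evidence of its own, and the levels are the authors' means, set against each other only within a table. They listed 84 peaks of the 8 genes, in 31 of the 110 regions. Each of the 8 comparisons listed 7 to 18 of them, out of 5699 to 8083 peaks of all genes. For naive 5-month animals, the KI mean was above the WT mean in 2018 of 6169 listed peaks of all genes. It was above in 4487 of 5699 for trained 5-month, 4262 of 6677 for naive 8-month and 4030 of 6893 for trained 8-month animals. Of these 84 peaks, 17 lay in A and G or C and T tracts.

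The Bdnf last exon was listed in 5 tables, not all of which are given here. Its authors' mean level was 14.61 in WT naive and 14.34 in KI naive, and 14.45 in WT trained and 14.74 in KI trained 5-month animals. At 8 months it was 14.32 in WT trained and 14.58 in KI trained animals, and 14.50 in KI naive and 14.64 in KI trained animals. The KI mean was below the WT mean in naive 5-month animals and above it in both trained pairs. Most listed peaks of all genes ran the same way in these pairs, as given above. The per-animal fold enrichment of KI trained 5-month animals lay below that of WT trained animals. Level in these tables is reads in the peak and fold enrichment is a ratio to the background.

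The Ngfr 3'UTR was listed in 4 tables. KI means were below WT means in 3 of them, at 8.11 against 8.88 in naive 5-month, 8.08 against 8.6 in naive 8-month and 8.1 against 8.52 in trained 8-month animals. The per-animal fold enrichment of this region did not run lower in KI animals. It averaged 7.965 ± 2.571 in KI animals (SD, n = 12) and 7.615 ± 1.235 in the WT animals with a peak (SD, n = 11). The Ngfr coding exon was 6.80 in WT trained and 5.33 in KI trained 8-month animals, the pair in which 3 and 0 animals had a peak. For the intron of Ntrk2 that was called in KI naive 8-month animals, the means were 5.01 in WT naive and 6.97 in KI naive animals.

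Further Ntrk2 levels did not run one way. The intron at chr13:59098097-59098723 was 8.17 in WT naive and 8.91 in KI naive 5-month animals, but 8.25 in WT trained and 7.80 in KI trained animals of that age and 7.55 and 6.67 in the trained 8-month pair. The end of Ntrk2-201 was 9.33 in WT trained and 8.41 in KI trained 8-month animals, and in the table for training in WT animals of that age it was 8.26 naive and 9.33 trained. The long 3'UTR was listed once, at 15.92 in WT naive and 15.66 in KI naive 5-month animals. In that pair the per-animal fold enrichment ran the other way, with all KI naive animals above the WT naive animals.

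The Ntrk3-002 end was listed in 7 of the 8 tables, for example at 12.36 in WT naive and 12.59 in KI naive 8-month animals. KI means were above WT means in the naive 8-month, trained 5-month and trained 8-month pairs and below in the naive 5-month pair. Most listed peaks of all genes ran the same way in each of these pairs, as given above. The per-animal log2 fold enrichment of KI was below that of WT in each pair. The differences were -0.18, -0.016, -0.51 and -0.14 in the same order, none past an adjusted p of 0.05 by limma. The Sorcs2 intron at chr5:36526210-36526760 had 3.91 in WT trained and 6.24 in KI trained 8-month animals, and 6.32 in WT naive against 4.19 in WT trained animals. Sort1 was listed in 3 tables, for example with 12.79 in WT naive and 12.19 in KI naive 5-month animals, and Sorcs1 3'UTR means were 5.85 in WT naive and 7.04 in KI naive 8-month animals.

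Other genes of the pathway were taken from a list of 36 that holds ligands, precursor convertases, adaptors and kinases downstream of the Trk receptors. In at least 1 animal, 34 of the 36 had a peak. Of 91 regions of the list tested for calls, 0 passed after adjustment for genotype, training or age, and 1, 1 and 13 had an unadjusted p under 0.05 (1.79%, 1.44% and 9.8% of all regions). None of 31 regions tested passed for level by the averaged contrasts. Of 27 genes tested for summits, 1 passed for age (2.18% of all genes), Furin, which encodes a convertase that cleaves proBDNF, with a difference of 0.90 (SE 0.23, limma adjusted p = 0.0436).

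Over the 24 animals, the genes whose strongest region varied most like that of a gene described here were sought among 7667 genes by Pearson's r of the centred log2 fold enrichment. For the Bdnf last exon they were Nrcam (r = 0.728), Arhgap32 (0.708) and Spin4 (0.705). For the Ntrk2 3'UTR the nearest were Bmp3 (0.784) and Zfp426 (0.760), and for the Ntrk3-001 end Helb (0.701), Thap2 (0.7) and Lrrc1 (0.674). The nearest to Sort1 was Mettl21d (0.731), to Sorcs3 Phf15 (0.704) and to Sorcs2 Dem1 (0.661). The animals share libraries and depth, and the highest of so many values are high by selection.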

How the data were processed

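The study prepared m6A-IP and input libraries from the hippocampal RNA of 24 mice, 3 in each of 8 conditions. Per the labels and the study's methods, the authors aligned reads to mm9 with STAR 2.7.3a, kept uniquely mapped reads outside repetitive regions and called narrow peaks for each IP and input pair with MACS2 2.2.6. The deposited peak lists give fold enrichment, a ratio over the local background, and the −log10 of the q-value of each peak (1.3 or more). The deposited comparison tables give the authors' log2 mean read level of each of 2 conditions in a peak, from DiffBind 2.8.0, as well as fold changes and p-values of the authors, which were not used. Of these 10, the 8 for pairs of conditions were used and the 2 that pool both genotypes were not. The input libraries have no values of their own here. The read depth of each library is therefore unknown, beyond the approximate coverage that the study's methods give for the libraries together. Precision rests on the number of animals.

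Groups came from the labels. Overlapping peaks of the 24 animals were merged in Python 3.11.15 and placed on GENCODE vM1 genes with bedtools 2.31.1. Calls were tested with Fisher's exact test (scipy 1.17.1), and levels and summit numbers with limma 3.58.1 in R 4.3.3, all with Benjamini-Hochberg adjustment over all regions or genes. Regions needed calls in 3 to 21 animals for the call test and in all 24 for the level test. Genes needed a mean of at least 1 summit. Scripts were tested on simulated data. The genes and lists were chosen with earlier results of these data known. Named were the region called in all 24 animals with the highest median enrichment in each gene, those with an adjusted or (Fisher) unadjusted p under 0.05 and those called in 3 and 0 animals of a pair. Other regions were chosen after their values were seen. Alternatives were peak strength, equal list lengths, overlap, stratification, scaling, pseudocount, filters, each animal left out and, chosen after seeing the data, bases under peaks.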

Additional observations from a re-analysis of the deposited data

How the results depend on the processing

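No paired analysis was possible because the input libraries that share animal numbers with the m6A-IP libraries have no values of their own and no animal belongs to more than 1 condition. The count of 0 of the 8 genes with a changed number of summits by age became 2 (Bdnf and Ngfr) without scaling, when 11.6% of all genes passed, 1 (Ngfr) with a pseudocount of 1 (2.66% of all genes) and 1 (Sorcs1, difference -1.15, limma adjusted p = 0.0473) with only peaks of −log10 q of 5 or more (0.43%). When each animal was left out in turn the count was 0 to 2, with 0.0426% to 11.2% of all genes. Ngfr passed without any 1 of the 3 WT naive 5-month animals, when 0.743% to 3.15% of all genes did. It also passed without the KI naive 8-month animal with 4 Ngfr summits (11.2% of all genes). Sorcs1 passed without the WT naive 5-month animal that had no Ngfr peak (limma adjusted p = 0.0484, with 1.08% of all genes). The 7 cases of calls in 3 and 0 animals became 5 with peaks of −log10 q of 3 or more. With the same number of best peaks per animal there were 4 and with a peak required to cover 50% of the region 1, and 0 of these were among the 7. The cause was not tested. Regions past an unadjusted p for age numbered 4, 7 of 35 with equal numbers of best peaks (6.1% of all regions) and 4 to 8 with each animal left out (11.3% to 16.5%). For genotype the 0 became 1 with peaks of −log10 q of 3 or more (1.53% of all regions) and of 5 or more (1.29%) and 0 to 1 with each animal left out (2.42% to 3.73%), and for training 0 to 2 (1.97% to 3.22%). Direction was followed only for differences with an unadjusted p under 0.05 in the main run. None of these changed direction under the alternatives in which it could be tested. The counts for genotype and training after adjustment were 0 under each alternative. Precision is limited by 3 animals per condition, by the absence of a level where no peak was called and by peak lists that differ in length.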
